A study of Mus musculus with 10 samples.

Results

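The 45 genes described here encode the cytoplasmic factors that start and extend protein chains, and they were chosen by symbol from the 24544 genes of the count table: initiation factors (eIF), elongation factors (eEF), poly(A)-binding proteins, the cap-complex inhibitors called 4E-BPs, and Tpt1. They were listed by family and role, not by a threshold on their values. All 45 had enough counts to be tested, among 12203 tested genes. RNA was sequenced in bulk from 10 samples of long-term hematopoietic stem cells, the rare cells that can rebuild the blood of a transplanted mouse for life. The donors were mice of the Hoxb5-mCherry strain at an age of 2 to 3 months, whose red fluorescent reporter follows the stem cell gene Hoxb5. The gate common to both groups was Lin- SCA1+ cKIT+ CD150+ FLK2- CD48- CD34- in bone marrow, with Hoxb5+ cells kept. Surface staining for the receptor neogenin-1 (NEO1) then gave 5 NEO1+ and 5 NEO1- libraries. Each library held 250 to 500 cells of 2 pooled mice; it is not stated whether a NEO1+ and a NEO1- library of the same number came from the same mice, and the p-values measure only the spread between these libraries.

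Translation begins when eIF2 brings the initiator tRNA to the small ribosomal subunit, eIF3 and eIF1 hold that subunit open for scanning, and the eIF4 proteins recruit it to the capped end of the mRNA. Elongation factor eEF1A then delivers each aminoacyl-tRNA, the eEF1B complex recharges eEF1A with GTP, and eEF2 moves the ribosome along. Hematopoietic stem cells are known for a low rate of protein synthesis compared with the progenitors they give rise to. Transcript levels do not measure that rate, and nothing here measures protein or ribosome occupancy.

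Levels are given as CPM, counts scaled to a common library size (1 CPM is 1 count per M counts) with TMM factors, and differences as log2 fold changes of NEO1+ over NEO1- from edgeR's quasi-likelihood test. The threshold was an adjusted p of 0.05 over all tested genes. No translation factor passed it, and neither did any other gene: the share of tested genes called was 0%. By DESeq2, an alternative count test, 2 members passed, Eef1b2 and Tpt1, both lower in NEO1+; 0.383% of the genes that test could judge were called lower. DESeq2 with the library number as a block called 5 members, all lower (Eef1b2, Eif1, Eif3h, Eif3k and Tpt1), beside 1.21% of its genes lower and 4.28% higher. At an unadjusted edgeR p under 0.05, 9 of the 45 members were lower in NEO1+ and 0 were higher, beside 3.49% of all tested genes lower and 3.11% higher. The 9 were Eef1b2, Tpt1, Eif1, Eif2s2, Eif3e, Eif3h, Eif3k, Pabpc1 and Pabpc4. Without NEO1- library 2 the number was 5.

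The members are abundant transcripts, and abundant genes of these libraries were more often lower than higher in NEO1+. Of the 620 tested genes at or above the members' median level of 164 CPM, 17.4% were lower at an unadjusted edgeR p under 0.05 and 4.52% higher. In the same level range 7 of 23 members were lower and 0 higher. With ribosomal protein genes left out, 10.1% of the remaining 563 abundant genes were lower. The ribosomal protein genes themselves were lower in 74 of 75 cases, with a median log2 fold change of -0.36.

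Over all members the log2 fold changes ran from -0.70 to 0.27 with a median of -0.05, beside a median of 0.01 over all tested genes. Of the 45, 27 were lower and 18 higher in NEO1+, while 49% of all tested genes were lower. The 95% interval of 41 members lay within 1 log2 unit of 0 on both sides, so that a larger than 2-fold difference was outside the interval for those genes. The plot of fold changes by class shows this narrow range.

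**Figure D1:**
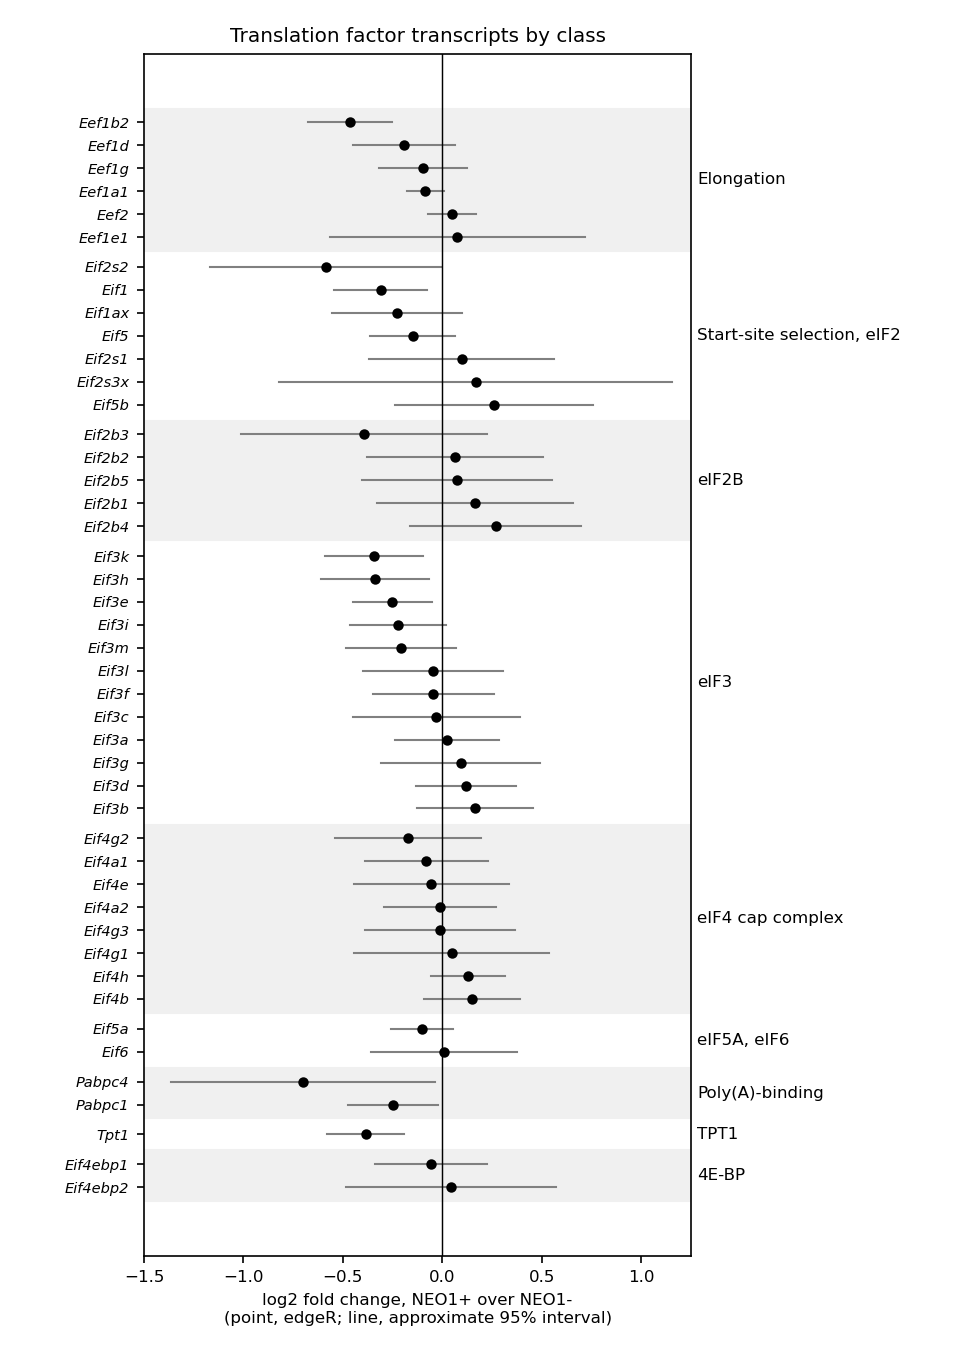
Log2 fold change of NEO1+ over NEO1- for the 45 translation factor genes, grouped by class; points are edgeR estimates over 5 libraries per group and lines their approximate 95% intervals. The estimates lie between -0.70 and 0.27, and the intervals of 9 genes, Eef1b2 and Tpt1 among them, lie wholly below 0.

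The elongation factors were read first. Of the 6 genes, 4 were lower and 2 higher, at a median log2 fold change of -0.09. Their summed level ran from 9031 to 9829 CPM in the NEO1+ group and from 9366 to 10264 CPM in the NEO1- group, overlapping ranges.

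Eef1b2, which encodes the guanine nucleotide exchange subunit eEF1B alpha, stood apart from the rest of the class. Its levels in NEO1+ libraries 1 to 5 were 185, 194, 222, 206 and 202 CPM; the NEO1- libraries 1 to 5 were at 273, 311, 289, 283 and 237 CPM. Every NEO1+ library was below every NEO1- library. The means were 202 ± 14.1 and 279 ± 26.8 CPM (SD, n = 5 each). This is a log2 fold change of -0.46 with a standard error of 0.10 and a 95% interval from -0.68 to -0.25. The adjusted p of Eef1b2 was 0.248 by edgeR and 0.000286 by DESeq2. Leaving out 1 library at a time gave log2 fold changes for Eef1b2 from -0.52 to -0.42, with edgeR adjusted p from 0.168 to 0.567.

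Eef1a1, which encodes the carrier of aminoacyl-tRNA, was the most abundant member. Its levels were 6618, 6909, 6815, 6273 and 6893 CPM in NEO1+ libraries 1 to 5 and 7251, 7295, 6973, 7391 and 6656 CPM in NEO1- libraries 1 to 5. NEO1- library 5 lay within the NEO1+ range, and the other 4 NEO1- libraries lay above it. The log2 fold change of Eef1a1 was -0.09 with a standard error of 0.04 (edgeR adjusted p 0.800).

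Eef2, which encodes the translocase that moves the ribosome by a codon, had a difference of the opposite sign. Its levels were 2012, 2113, 1869, 1842 and 1939 CPM in NEO1+ libraries 1 to 5, and 2004, 1874, 1917, 1852 and 1818 CPM in NEO1- libraries 1 to 5. The groups overlapped across most of their range. The log2 fold change was 0.05 with a 95% interval from -0.07 to 0.17 (edgeR adjusted p 0.988), one of the narrowest intervals in the list.

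The other elongation genes encode the remaining eEF1B subunits and a partner of the tRNA synthetases. Eef1g had a log2 fold change of -0.10, Eef1d of -0.19 and Eef1e1 of 0.07, with 95% intervals that spanned 0. Levels of these genes were also read as ratios within each library. Per 1000 Eef1a1 counts there were 30.2 ± 2.42 counts of Eef1b2 in NEO1+ (27.9 to 32.9) and 39.1 ± 2.83 in NEO1- libraries (35.7 to 42.6; SD, n = 5 each), ranges that do not overlap. For Eef1g the same ratio was 65.2 in NEO1+ and 65.4 in NEO1-, and for Eef1d 25.2 and 27.1. Set directly against another exchange factor subunit, Eef1b2 had 467 ± 52.4 counts per 1000 Eef1g counts in NEO1+ (403 to 518) and 607 ± 105 in NEO1- (504 to 767; SD, n = 5 each), ranges that overlap. For Eef2 the ratio to Eef1a1 was 292 ± 13.9 in NEO1+ and 266 ± 11.8 in NEO1- (SD, n = 5 each). These ratios need no scaling between libraries, but Eef1b2 was picked for them with its difference known, so they are a description and carry no test.

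The mRNAs of many translation genes, elongation factors among them, are known to begin with a C and a run of pyrimidines. Such a 5′ terminal oligopyrimidine (TOP) tract places an mRNA under control by the mTOR pathway and the RNA-binding protein LARP1. The annotated start regions of 9 members are shown because they hold the genes with the clearest differences beside genes that lack one. Each is 40 bases, 20 before and 20 from the RefSeq transcript start (build GRCm38.p6), written 5′ to 3′ on the gene's strand, and capitals mark the longest tract found, a C followed by at least 4 of C or T. Eef1b2 lies at chr1:63176811-63176850 on the plus strand, Tpt1 at chr14:75845236-75845275 (plus), Eif1 at chr11:100319929-100319968 (plus) and Eif3k at chr7:28981869-28981908 (minus). The others are Eef1a1 at chr9:78481705-78481744 (minus), Eef2 at chr10:81176611-81176650 (plus), Eif3f at chr7:108934395-108934434 (plus), Eif2s3x at chrX:94212632-94212671 (minus) and Eif4b at chr15:102073753-102073792 (plus).
Eef1b2: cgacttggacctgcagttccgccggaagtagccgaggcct
Tpt1: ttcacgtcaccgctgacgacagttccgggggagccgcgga
Eif1: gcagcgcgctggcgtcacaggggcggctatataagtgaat
Eif3k: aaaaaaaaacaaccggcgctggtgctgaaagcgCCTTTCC
Eef1a1: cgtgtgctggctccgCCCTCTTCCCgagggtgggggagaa
Eef2: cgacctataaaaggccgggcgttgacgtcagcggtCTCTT
Eif3f: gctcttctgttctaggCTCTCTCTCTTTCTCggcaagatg
Eif2s3x: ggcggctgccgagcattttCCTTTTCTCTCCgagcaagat
Eif4b: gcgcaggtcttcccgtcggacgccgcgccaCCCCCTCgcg

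The annotated start of a gene can lie some bases from the main start used in these cells, so the whole window was read as well as the start base. Of the 45 members, 35 matched the RefSeq table by symbol; Eef1d, Eef1g, Eif2b3, Eif3e, Eif3h, Eif3i, Eif4g2, Eif6, Pabpc1 and Eif4ebp1 did not. The start base and the 4 bases after it fitted the tract in 2 of the 35, Eif2s3x and Eif3f (5.71%), beside 3.01% of 27025 genes in the table; in both the run also reaches upstream of the start. A tract lay somewhere in the 40 bases in 14 of 35 members (40%) and in 49.9% of all genes, and a tract of at least 8 bases in 8 of 35 (22.9%) and in 14.5% of all genes. The search was for C followed by at least 4 pyrimidines on the gene's strand only. Of the 9 members lower in NEO1+ at an unadjusted edgeR p under 0.05, 6 have a window. Those of Eef1b2, Tpt1, Eif1, Eif2s2 and Pabpc4 hold no such run, and that of Eif3k holds 1 of 7 bases. The window of Eef1a1, with a log2 fold change of -0.09, holds 1 of 10 bases.

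Grouping the members by textbook knowledge of TOP mRNAs gave a list of 11, namely Eef1a1, Eef1b2, Eef1d, Eef1g, Eef2, Eif3e, Eif3f, Eif3h, Eif4b, Pabpc1 and Tpt1. Of these 9 were lower and 2 higher in NEO1+, and the median log2 fold change was -0.19. At an unadjusted edgeR p under 0.05, 5 were lower, beside 3.49% of all tested genes. Among the 620 abundant genes, at or above 164 CPM as all 11 are, 17.4% were lower at that p. The share was 10.1% with ribosomal protein genes left out. The 75 ribosomal protein genes read above, of which 74 were lower, are not on this list of 11. Of the other 34 members, 18 were lower and 16 higher, with a median of -0.01, and 4 were lower at an unadjusted p under 0.05. All 11 had mean levels above the members' median of 164 CPM, and the part of abundance in this difference was not tested. Of the 11, 6 have a start window, of which 1 held a tract at the start base and 4 held a tract anywhere. The windows of Eef1b2 and Tpt1 held none. As both are on the textbook list, a window without a tract does not show that an mRNA lacks one.

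Among the initiation factors, 18 of 32 were lower and 14 higher, at a median log2 fold change of -0.02. An unadjusted edgeR p under 0.05 was found for 5 of the 32 (15.6%), all lower. At that p 3.49% of all tested genes and 17.4% of the 620 abundant genes were lower. The 32 had mean levels from 10.5 to 388 CPM, so the share of genes at or above 164 CPM does not match their levels. Of the 5, Eif1, Eif3e, Eif3h and Eif3k lay above 164 CPM and Eif2s2 below it. Within that level range the share was read for all members only, 7 of 23 lower. The summed level of the 32 initiation factors was 5147 to 5509 CPM for NEO1+ and 5200 to 5959 CPM for NEO1-. The classes differed in sign, as described next.

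The factors that choose the start codon were eIF1, eIF1A, eIF5, eIF5B and the 3 subunits of eIF2, which carries the initiator tRNA. Of these 7 genes 4 were lower and 3 higher, with a median log2 fold change of -0.15. Eif1, whose product keeps the scanning ribosome from accepting wrong start codons, was at 272, 320, 313, 382 and 317 CPM in NEO1+ libraries 1 to 5 and at 346, 437, 387, 454 and 364 CPM in NEO1- libraries 1 to 5. NEO1+ library 4 lay among the NEO1- values and the other 4 NEO1+ libraries lay below all of them. The log2 fold change of Eif1 was -0.31 with a standard error of 0.11 and an edgeR adjusted p of 0.583. It was -0.17 without the 4 libraries high in granulocyte genes that are named below.

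Eif2s2, the beta subunit of eIF2, was at 29.7, 34.1, 33.4, 42.6 and 47.1 CPM in NEO1+ libraries 1 to 5 and at 53.4, 61.9, 89.8, 29.8 and 46.0 CPM in NEO1- libraries 1 to 5. NEO1- libraries 4 and 5 lay within the NEO1+ range, and NEO1- library 3 was the highest. The log2 fold change was -0.59 with a standard error of 0.27 (edgeR adjusted p 0.747), and without NEO1- library 3 it was -0.35. Eif5b, which encodes the GTPase that joins the ribosomal subunits, had the highest positive estimate of the class, 0.26 with a standard error of 0.23 (edgeR adjusted p 0.952). It was at 55.9, 45.8, 46.4, 69.2 and 53.3 CPM for NEO1+ 1 to 5 and 38.2, 60.2, 26.7, 53.3 and 47.8 CPM for NEO1- 1 to 5, with wide overlap. Over omissions of 1 library its estimate ran from 0.12, without NEO1- library 3, to 0.38. The summed level of the 7 genes was 835, 896, 943, 963 and 928 CPM in NEO1+ libraries 1 to 5, and 1056, 1035, 1045, 1042 and 1000 CPM in NEO1- libraries 1 to 5. These sums do not overlap, and they rest mostly on the abundant Eif1 and Eif5, at 321 and 291 CPM on average in NEO1+ and 398 and 323 CPM in NEO1-.

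The eIF2B complex reloads eIF2 with GTP and is the point at which stress kinases slow initiation. Of its 5 subunit genes 1 was lower and 4 were higher, at a median log2 fold change of 0.07; none had an unadjusted edgeR p under 0.05. Eif2b4, the delta subunit, was at 36.6, 44.1, 37.4, 34.6 and 41.8 CPM in NEO1+ libraries 1 to 5 and at 36.5, 38.8, 27.0, 31.7 and 27.7 CPM in NEO1- libraries 1 to 5. The NEO1+ values were at the upper side of the NEO1- range, with overlap. Its log2 fold change was 0.27 with a standard error of 0.20 (edgeR adjusted p 0.911). Eif2b3, the gamma subunit, was the 1 subunit with a lower mean, with a log2 fold change of -0.39 and a standard error of 0.29 (edgeR adjusted p 0.904). NEO1+ libraries held 18.4, 29.3, 17.7, 23.6 and 23.1 CPM of it and NEO1- libraries 44.5, 26.5, 32.3, 18.2 and 25.8 CPM, of which NEO1- libraries 1 and 3 lay above the NEO1+ range. Without NEO1- library 1 its estimate was -0.20. Eif2b5, the catalytic epsilon subunit, was at 96.9, 70.1, 58.6, 58.9 and 51.6 CPM for NEO1+ 1 to 5 and 40.5, 69.2, 61.1, 65.6 and 82.7 CPM for NEO1- 1 to 5. The groups overlapped, with a log2 fold change of 0.07 that was -0.09 without NEO1+ library 1.

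The eIF3 complex binds the small subunit and bridges it to the cap complex. Of its 12 subunit genes in the list, 8 were lower and 4 higher, at a median log2 fold change of -0.05. The 3 subunits with an unadjusted edgeR p under 0.05 were Eif3k, Eif3h and Eif3e, all lower. At that p 3.49% of all tested genes and 17.4% of the 620 abundant genes were lower. The 12 subunit genes had mean levels from 147 to 351 CPM. Some of them thus lie below the 164 CPM limit of the abundant genes, while Eif3k, Eif3h and Eif3e lie above it. Eif3k, a small peripheral subunit, was at 164, 157, 159, 185 and 150 CPM in NEO1+ libraries 1 to 5, and at 216, 240, 210, 199 and 169 CPM in NEO1- libraries 1 to 5. NEO1- library 5 lay within the NEO1+ range and the other 4 lay above it. The log2 fold change of Eif3k was -0.34 with a standard error of 0.11 (edgeR adjusted p 0.548).

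Eif3h was at 199, 223, 209, 180 and 151 CPM in NEO1+ libraries 1 to 5 and at 247, 289, 219, 249 and 212 CPM in NEO1- libraries 1 to 5. NEO1+ library 2 was above the 2 lowest NEO1- libraries, and the other NEO1+ libraries were below all NEO1- libraries. Its log2 fold change was -0.34 with a standard error of 0.13 (edgeR adjusted p 0.604). Eif3e was at 321, 299, 369, 313 and 303 CPM in NEO1+ libraries 1 to 5 and at 427, 392, 386, 347 and 356 CPM in NEO1- libraries 1 to 5. NEO1+ library 3 lay within the NEO1- range and the other 4 lay below it. Its log2 fold change was -0.25 with a standard error of 0.09 (edgeR adjusted p 0.596).

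The other 9 subunits had unadjusted edgeR p above 0.05 and estimates of both signs. Eif3i and Eif3m were the lowest of them, with log2 fold changes of -0.22 and -0.21. Eif3b, part of the core scaffold, had a log2 fold change of 0.16 with a standard error of 0.14 (edgeR adjusted p 0.934). It was at 306, 302, 288, 316 and 264 CPM for NEO1+ 1 to 5 and at 290, 330, 276, 236 and 186 CPM for NEO1- 1 to 5, a wider spread in NEO1-, and without NEO1- library 5 the estimate was 0.06. Eif3d, which can bind the cap itself, had 0.12 (edgeR adjusted p 0.965), at 270, 301, 235, 272 and 221 CPM for NEO1+ 1 to 5 and 279, 241, 254, 202 and 221 CPM for NEO1- 1 to 5. Eif3a, the largest subunit, had 0.02 and Eif3c -0.03. Whether the subunits differ from one another in response to the sort was not tested.

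**Figure D2:**
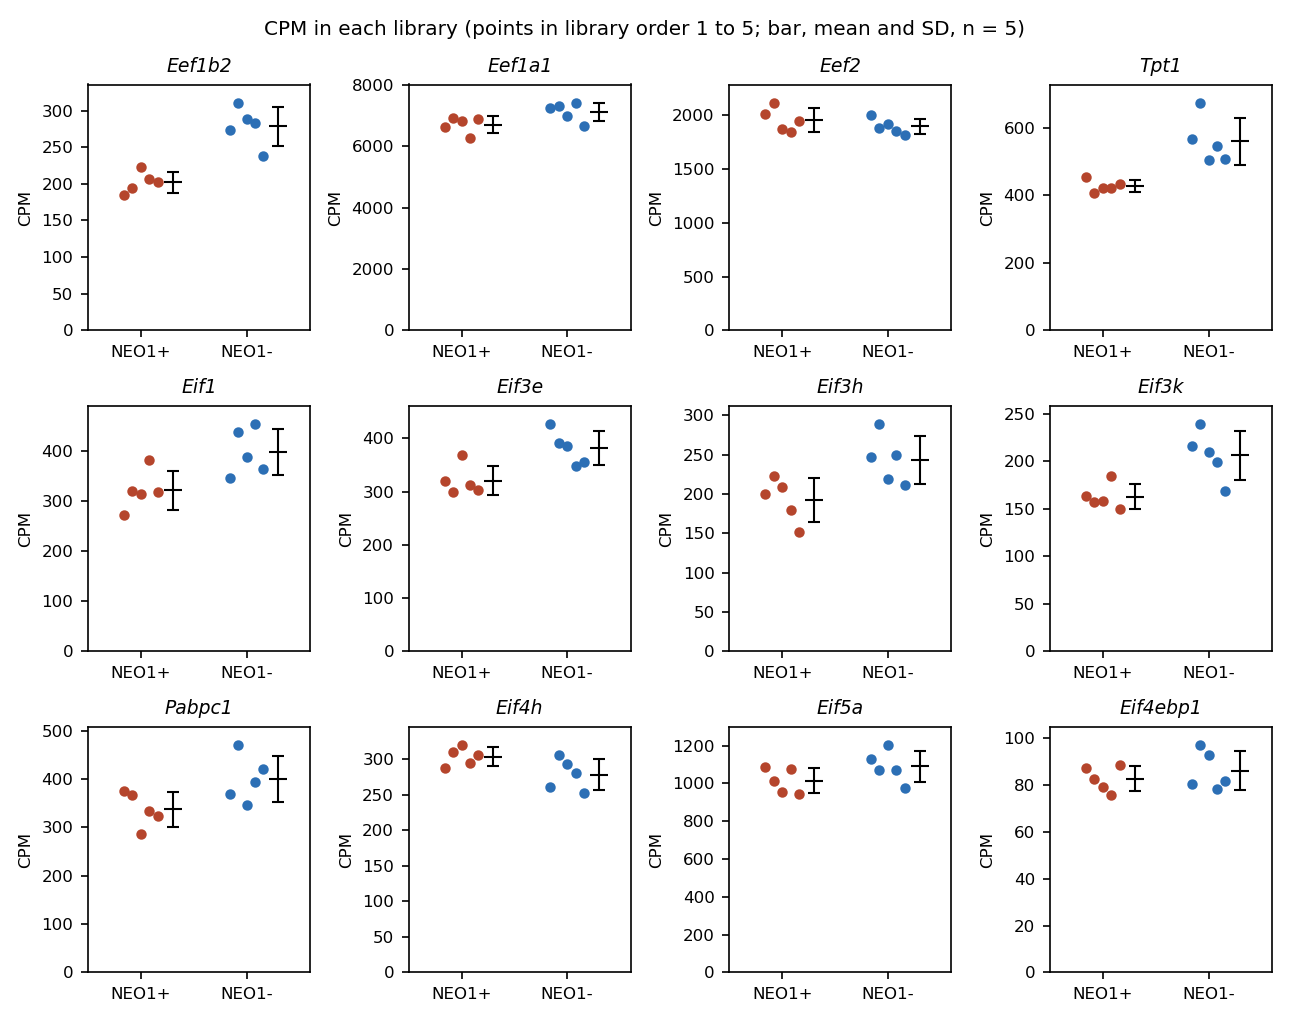
CPM of 12 translation factor genes in each library, points in library order 1 to 5 and bars the mean and SD (n = 5 per group), with axes that start at 0. The NEO1+ and NEO1- points of Eef1b2 and Tpt1 do not overlap, while those of the other 10 genes do.

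The eIF4 proteins assemble on the cap. Of 8 genes 5 were lower and 3 higher, the median log2 fold change was -0.01, and none had an unadjusted edgeR p under 0.05. Eif4h, which stimulates the helicase eIF4A, had the smallest p of the class. It was at 287, 310, 320, 294 and 306 CPM in NEO1+ libraries 1 to 5 and at 261, 305, 293, 281 and 252 CPM in NEO1- libraries 1 to 5. The NEO1+ libraries were at the upper side with overlap, and the log2 fold change was 0.13 with a standard error of 0.09 (edgeR adjusted p 0.898). Eif4b, another helicase partner, had a log2 fold change of 0.15 (edgeR adjusted p 0.916). It was at 274, 262, 267, 230 and 252 CPM for NEO1+ 1 to 5 and at 265, 230, 179, 237 and 250 CPM for NEO1- 1 to 5. NEO1- library 3 was the lowest of the 10, and the estimate was -0.0013 without the 4 libraries high in granulocyte genes.

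The helicase gene Eif4a2 was the most abundant of the class in CPM. It was at 415, 353, 415, 357 and 389 CPM for NEO1+ 1 to 5 and at 465, 418, 265, 421 and 378 CPM for NEO1- 1 to 5, and both the lowest and the highest library were NEO1-. It had a log2 fold change of -0.01 and a standard error of 0.13 (edgeR adjusted p 0.9997). Its sign changed under several of the alternatives given in the closing section. The cap-binding protein gene Eif4e had a log2 fold change of -0.06, and the scaffold genes Eif4g1 and Eif4g3 had 0.05 and -0.01. Eif4g2, a related scaffold that does not bind eIF4E, had the largest estimate in size of the class, -0.17, with an unadjusted edgeR p above 0.05. The 4E-BPs, which block eIF4E when mTOR is inactive, had estimates near 0 as well. Eif4ebp1 was at 87.2, 82.7, 79.4, 76.0 and 88.7 CPM in NEO1+ libraries 1 to 5 and at 80.3, 97.3, 93.1, 78.6 and 81.9 CPM in NEO1- libraries 1 to 5. The groups overlapped throughout, with a log2 fold change of -0.06 (edgeR adjusted p 0.998). Eif4ebp2 was at 24.6, 32.3, 24.5, 23.7 and 27.7 CPM for NEO1+ 1 to 5 and at 35.7, 22.9, 25.3, 20.6 and 24.4 CPM for NEO1- 1 to 5, with a log2 fold change of 0.04 (edgeR adjusted p 0.998).

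Per kb of transcript, a scale for rough comparison of genes, Eif4ebp1 was at 42.3 and Eif4ebp2 at 4.52 CPM per kb over all libraries. On it Eif4ebp1 was the more abundant inhibitor transcript. Each length is that of the annotated principal GENCODE transcript, the longest where there are several. The part of this choice in the levels was not tested. On the same scale the helicase genes were at 176 for Eif4a2 and 92.6 for Eif4a1. Eif4a1 has 3 similar pseudogene transcripts, 1 of them 99.9% identical over 1218 bases, and Eif4a2 has 0. Whether reads lost to such copies set this order was not tested. The most abundant members were Eef1a1 at 3850, Eif5a at 732, Eef2 at 623 and Tpt1 at 422 CPM per kb. The eIF3 subunits, whose proteins occur once each in the complex, spanned from 41.9 CPM per kb for Eif3a to 239 for Eif3k. Eif3a has the longest transcript of the 12, at 5125 bases, and Eif3k the shortest, at 774 bases, and the part of length in the order was not tested.

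**Figure D3:**
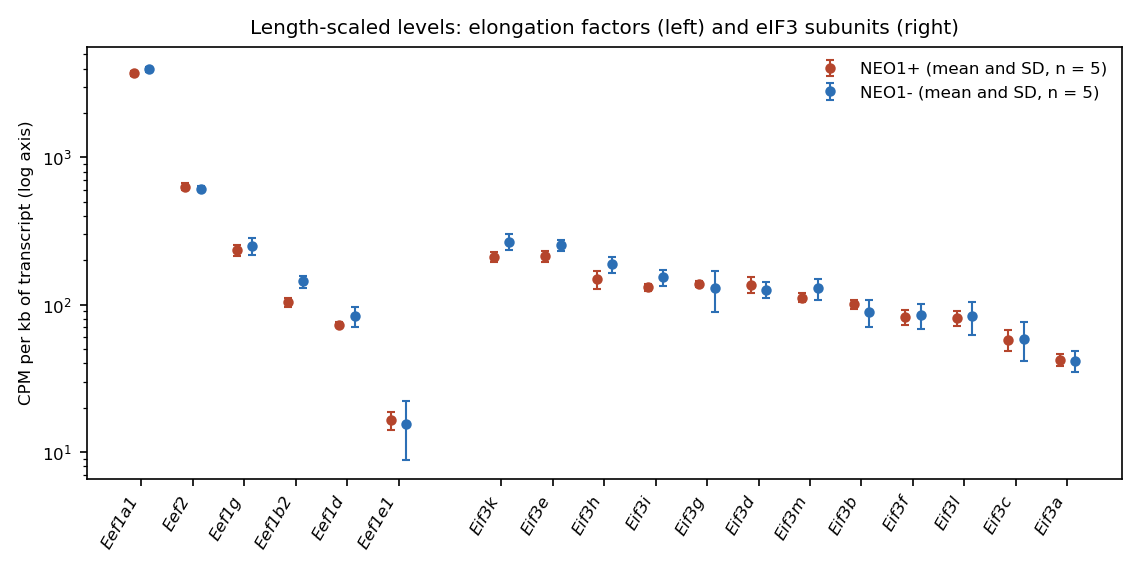
Mean level in CPM per kb of transcript on a log axis for the elongation factors (left) and the eIF3 subunits (right), with SD over 5 libraries per group. Eef1a1 lies far above the other elongation factors at 3850 CPM per kb, and the eIF3 subunits run from Eif3k at 239 to Eif3a at 41.9.

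Eif5a encodes a factor that helps ribosomes through stalling sequences and carries hypusine, a modified lysine known only from eIF5A proteins. It was at 1089, 1010, 955, 1076 and 943 CPM in NEO1+ libraries 1 to 5 and at 1127, 1071, 1204, 1069 and 975 CPM in NEO1- libraries 1 to 5. The groups overlapped, with a log2 fold change of -0.10, a standard error of 0.07 and an edgeR adjusted p of 0.900. Eif6, which keeps the ribosomal subunits apart, had a log2 fold change of 0.01.

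Both poly(A)-binding protein genes had lower means in NEO1+. Pabpc1, whose product binds the mRNA tail and the cap complex, was at 375, 367, 286, 333 and 324 CPM in NEO1+ libraries 1 to 5 and at 369, 471, 346, 394 and 420 CPM in NEO1- libraries 1 to 5. The groups overlapped, and the log2 fold change was -0.25 with a standard error of 0.11 (edgeR adjusted p 0.705). Pabpc4, the less abundant paralog at 8.31 against 131 CPM per kb for Pabpc1, was at 14.2, 27.2, 16.4, 18.2 and 19.6 CPM in NEO1+ libraries 1 to 5 and at 39.3, 37.7, 20.8, 18.8 and 38.9 CPM in NEO1- libraries 1 to 5. NEO1- libraries 3 and 4 lay within the NEO1+ range. Its log2 fold change of -0.70 was the largest in size of the 45, with a standard error of 0.31 and an edgeR adjusted p of 0.721. Pabpc4 has 8 genes with similar transcripts and Pabpc1 has 1, and the part of such copies in their levels was not tested.

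Tpt1 encodes the translationally controlled tumor protein, an abundant protein that binds elongation factors. It was at 454, 405, 422, 422 and 434 CPM in NEO1+ libraries 1 to 5 and at 565, 673, 505, 545 and 506 CPM in NEO1- libraries 1 to 5. Every NEO1+ library was below every NEO1- library. The means were 428 ± 18.1 and 559 ± 68.8 CPM (SD, n = 5 each), with a log2 fold change of -0.39, a standard error of 0.09 and a 95% interval from -0.58 to -0.19. Its adjusted p was 0.266 by edgeR and 0.00322 by DESeq2. Leaving out 1 library at a time gave log2 fold changes of Tpt1 from -0.42 to -0.31, with edgeR adjusted p from 0.211 to 0.701. Per 1000 Eef1a1 counts Tpt1 had 63.9 ± 4.09 counts in NEO1+ (58.6 to 68.6) and 78.5 ± 7.99 in NEO1- (72.5 to 92.3; SD, n = 5 each).

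Eef1b2 and Tpt1 were the 2 members of 45 whose groups did not overlap, both lower in NEO1+. Groups that did not overlap, lower in NEO1+, made up 1.13% of all tested genes and 6.29% of the abundant genes, and 1.35% of all tested genes did not overlap in the higher direction. With 2 of 23 abundant members, this count lay near the abundant background.

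Reads from processed pseudogenes and near-identical copies can be counted to a translation factor or lost from it, depending on how reads with several matches were handled, which is not given in the sources used here. By alignment of GENCODE transcripts, 17 of the 45 members had at least 1 other annotated transcript with 300 bases or more at 95% identity or more. Of the 9 members with an unadjusted edgeR p under 0.05, 7 had such a copy, Tpt1 among them: Tpt1-ps3 is 100% identical to it over 519 bases. Eef1b2 and Eif3k had none. Values of the 17 genes are uncertain to that extent, and most of the copies are not listed in the table. The 2 genes for the loose eIF3 subunit j, Eif3j1 and Eif3j2, had 0 counts in all 10 libraries and are 99.4% identical over 2379 bases. Eef1a2, the muscle and neuron form of eEF1A, also had 0 counts in all 10 libraries, which allows up to between 0.0770 and 0.142 CPM from the limit of 3 counts per library.

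Members varied more between NEO1- than between NEO1+ libraries. The coefficient of variation was larger in NEO1- for 37 of 45 members, with medians of 10.9% in NEO1+ and 17.6% in NEO1- libraries. The same direction held for 78.2% of all tested genes, so the members' share lay near the background.

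Other genes of translation were read from lists fixed by role. Of 18 tested further initiation genes, 8 were lower and 10 higher, and the median log2 fold change was 0.01; 0 had an unadjusted edgeR p under 0.05. The gene of smallest p among the lower ones was Denr, which encodes a reinitiation factor (log2 fold change -0.37, edgeR adjusted p 0.784). Among the higher ones it was Eif4enif1, the carrier of eIF4E into the nucleus (0.35, edgeR adjusted p 0.898). Of 9 genes of mitochondrial translation, 3 were lower and 6 higher, with a median of 0.07. Gfm1, the mitochondrial translocase, had 0.85 with a standard error of 0.37 (edgeR adjusted p 0.721), and Mrrf, the ribosome recycling factor, had -0.36 (edgeR adjusted p 0.900).

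Of 8 genes of termination, recycling and ribosome rescue, 4 were lower and 4 higher, with a median of -0.03. Abce1, the ATPase that splits ribosomes after termination, was at 140, 113, 107, 135 and 106 CPM in NEO1+ libraries 1 to 5 and at 86.2, 67.4, 58.8, 94.8 and 77.5 CPM in NEO1- libraries 1 to 5. Every NEO1+ library was above every NEO1- library, the direction opposite to that of Eef1b2 and Tpt1. Such separation in the higher direction was found for 1.35% of all tested genes. The log2 fold change of Abce1 was 0.64 with a standard error of 0.16, and its adjusted p was 0.320 by edgeR and 0.0169 by DESeq2, where 0.616% of the judged genes were called higher. Nemf, which marks stalled nascent chains, had -0.49 (edgeR adjusted p 0.761).

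Of 8 further genes with TOP mRNAs that are not translation factors of the list, 5 were lower and 3 higher, with a median of -0.06. Among the 3 higher, Hnrnpa1 had a mean of only 0.80 CPM and a standard error of 1.13. Rack1 and Fau were the 2 lower at an unadjusted edgeR p under 0.05. At that p 3.49% of all tested genes and 17.4% of the 620 abundant genes were lower. Rack1, at a mean of 616 CPM, lies in the range of those abundant genes, while Fau, at 97.7 CPM, lies below it. Rack1, a protein of the small ribosomal subunit, was at 556, 568, 515, 512 and 554 CPM in NEO1+ libraries 1 to 5 and at 704, 767, 707, 635 and 645 CPM in NEO1- libraries 1 to 5. All NEO1+ libraries were below all NEO1- libraries, as for 1.13% of all tested genes and 6.29% of the abundant genes. The log2 fold change of Rack1 was -0.35 with a standard error of 0.07. Its adjusted p was 0.248 by edgeR and 0.000323 by DESeq2. Nap1l1, the histone chaperone, had 0.12 (edgeR adjusted p 0.988).

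Of 20 genes that control translation, such as the eIF2 kinases, mTOR and its substrates and the MYC factors, 13 were lower and 7 higher, with a median of -0.08. At an unadjusted edgeR p under 0.05, 2 were lower (Larp1 and Myc) and 1 higher (Mycn), beside 3.49% of all tested genes lower and 3.11% higher. Larp1, which encodes the TOP mRNA-binding protein, had a log2 fold change of -0.66 with a standard error of 0.27 (edgeR adjusted p 0.681). Its NEO1- libraries 1 and 4, at 35.0 and 30.1 CPM, lay within the NEO1+ range of 27.4 to 38.2 CPM. NEO1- library 3 was the highest, at 84.6 CPM. Larp1 is named here outside the rule for single genes. Myc and Mycn encode related transcription factors that drive ribosome and translation genes, and their estimates had opposite signs. Myc was at 206, 324, 251, 292 and 232 CPM in NEO1+ libraries 1 to 5 and at 379, 289, 503, 387 and 266 CPM in NEO1- libraries 1 to 5, overlapping groups with a log2 fold change of -0.48 (edgeR adjusted p 0.586). Without the 4 libraries high in granulocyte genes the value for Myc was -0.14. Mycn was at 446, 517, 521, 713 and 502 CPM in NEO1+ libraries 1 to 5 and at 435, 381, 356, 500 and 345 CPM in NEO1- libraries 1 to 5, with a log2 fold change of 0.42 and a standard error of 0.13 (edgeR adjusted p 0.539). DESeq2 with the library number as a block gave Mycn an adjusted p of 0.000640. The number of Myc counts per 1000 Mycn counts ran from 409 to 626 in NEO1+ and from 758 to 1411 in NEO1- libraries; this ratio was chosen after both values were seen.

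**Figure D4:**
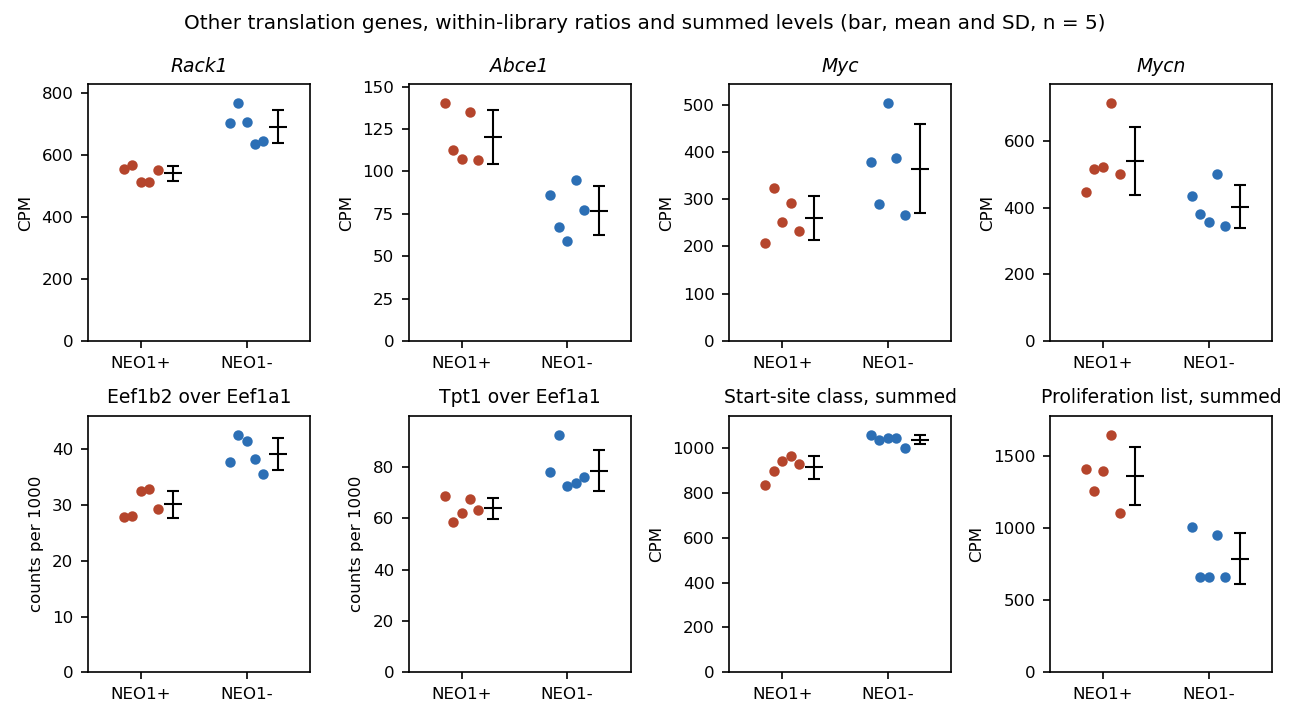
Upper row, CPM of Rack1, Abce1, Myc and Mycn in each library; lower row, Eef1b2 and Tpt1 counts per 1000 Eef1a1 counts and the summed CPM of the 7 start-site genes and of 16 proliferation genes, with mean and SD (n = 5 per group). The NEO1+ and NEO1- points overlap for Myc and Mycn and are separate in the other 6 panels. Of single tested genes, 1.13% were separate in the lower direction and 1.35% in the higher.

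Further facts of the libraries are as follows. Totals were 21.2 to 38.9 M counts, and PCR copies were not marked, so counts are not independent molecules and limits cover counting error only. The ribosomal RNA precursor Rn45s held 27.9% to 37.7% of counts in NEO1+ and 30.7% to 42.4% in NEO1- libraries, and 12800 to 13808 and 11477 to 13147 genes were detected; their part in the translation factor values was not tested. Neo1 itself was at 64.7, 48.6, 59.5, 12.5 and 52.0 CPM in NEO1+ libraries 1 to 5 and 18.9, 11.5, 12.2, 4.55 and 6.15 CPM in NEO1- libraries 1 to 5, so the library labelled NEO1+ 4 lay within the NEO1- range. Without that library the log2 fold change was -0.47 for Eef1b2 and -0.38 for Tpt1 (edgeR adjusted p 0.396 and 0.486). All 10 stem cell markers were detected, at 2783 to 3130 CPM summed in the NEO1+ and 2636 to 3086 CPM in the NEO1- group. The 16 proliferation genes were all higher in NEO1+ on average, with sums of 1102 to 1645 CPM against 658 to 1008 CPM. The 10 megakaryocyte genes summed to 354 to 424 CPM in the NEO1+ and 204 to 271 CPM in the NEO1- group. That list was mixed in direction: 6 genes had log2 fold changes above 0, while Pf4, Gp9, Gp5 and Ppbp had values below 0. Mean levels in NEO1+ and NEO1- were 109 and 32.1 CPM for Clu, 101 and 58.9 CPM for Vwf, and 35.1 and 8.17 CPM for Selp. These are the genes of smallest unadjusted edgeR p in the list. In the other direction they were 7.54 and 9.60 CPM for Pf4, 27.8 and 32.5 CPM for Gp9, 21.2 and 23.8 CPM for Gp5, and 2.37 and 6.13 CPM for Ppbp. The 10 granulocyte and monocyte genes summed to 492 to 3867 and 381 to 3059 CPM, above 1000 CPM in NEO1+ libraries 1 and 3 and NEO1- libraries 3 and 4, and without those 4 libraries the estimates were -0.45 for Eef1b2 and -0.47 for Tpt1 (edgeR adjusted p 0.763 and 0.762). Of 10 erythroid genes 3 were at 0 in every library, with sums of 1481 to 2012 and 1405 to 1574 CPM, and of 10 lymphoid genes 5 were at 0, with sums of 34.1 to 50.3 and 25.1 to 60.8 CPM. The part of cycling or admixed cells in the translation factor values was not tested, and in bulk libraries fewer cells of a type and less RNA per cell cannot be told apart.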

How the data were processed

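Per the labels' protocols, poly(A)-primed Smart-seq2 cDNA of 250 to 500 sorted cells was amplified with 18 cycles of PCR, and 40 ng was made into libraries with the Nextera kit. The submitters' processing notes name STAR 2.4, bcl2fastq 2.18, DESeq2 1.22.2 and the build mm10; the counting tool, annotation and strand setting are not given in the sources used here. The authors deposited raw counts per gene symbol, used for all main results, and log2 values, which equal log2 of the count over a size factor plus 1 and served 1 alternative. Rn45s, the ribosomal RNA precursor, held 27.9% to 42.4% of counts and was kept.

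Counts were tested with edgeR 4.0.16 in R 4.3.3 (filterByExpr with a minimum count of 10, TMM, robust quasi-likelihood), Benjamini-Hochberg adjusted over 12203 genes, over 5 NEO1+ and 5 NEO1- libraries without covariates; the procedure was tested on simulated data. Each standard error was taken as the absolute log2 fold change divided by the root of its F statistic. Alternatives were DESeq2 1.42.0, its size factors in edgeR, no filter, replicate blocks, limma 3.58.1, removal of Rn45s, omission of each library and, chosen after seeing the data, of the 4 libraries high in granulocyte genes. Replicates of a group differed by more than sampling noise (chi-square per degree of freedom at least 89.5). Similar transcripts were found with blastn 2.17.0. The members, the gene lists and the alternatives were chosen with earlier results of these data known. Members with values in every library were, per class, those of smallest p and of highest CPM, the 6 of smallest p in each direction, Eef1a1, Eef2 and the 4E-BPs; Eif2s2 and Pabpc4 were added after their values were seen. Of every other translation list the gene of smallest p in each direction is named, while marker lists are given as sums. Lower and higher always mean in NEO1+ relative to NEO1-.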

Additional observations from a re-analysis of the deposited data

How the results depend on the processing

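The count of all genes past the threshold was 0 by edgeR (806 at an unadjusted p under 0.05). It was 146 by DESeq2, 2 with no filter, 1 by limma-trend, and 0 to 1 over omissions of 1 library, where the 1 came without NEO1- library 1. Members past it numbered 0 by edgeR, 2 by DESeq2 (Eef1b2 and Tpt1), and 0 in every other setting but the DESeq2 block. Equal library numbers did not meet the criterion set for pairing, a correlation over 0.1 in every pair, though the check was mixed: deviations from group means correlated between same-numbered libraries at 0.01, 0.04, 0.00, 0.02 and 0.02, and 3 of 5 NEO1+ libraries correlated best with their own number. Among the 620 abundant genes the values were -0.56, 0.28, 0.36, 0.40 and 0.45. With a replicate block, edgeR called 0 genes (874 at an unadjusted p under 0.05) and 0 members, while DESeq2 with a replicate block called 727 genes and 5 members (Eef1b2, Eif1, Eif3h, Eif3k and Tpt1). In 18 alternatives 25 to 30 members were lower, and 5 to 11 of those had an unadjusted p under 0.05, with 5 without NEO1- library 2. The medians of the elongation and initiation factors moved by less than the spread between libraries in all 18, but that of the initiation factors, -0.02, turned to 0.0101 with the edgeR replicate block, 0.0052 with the DESeq2 replicate block, 0.0049 by limma-trend and 0.0127 without NEO1- library 3.

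The sign of small estimates changed. Eif4a2 was at 0.0082 with the edgeR replicate block, 0.0032 with the DESeq2 replicate block and 0.0049 by limma-trend, and at -0.12 to 0.0598 over omissions of 1 library. Without the libraries high in granulocyte genes Eif2b5 was at -0.0896 and Eif4b at -0.0013. Over omissions of 1 library Eif2b5 ran from -0.0932 to 0.19 and Eif4ebp2 from -0.0369 to 0.19. The median of all genes shifted to 0.11 by limma-trend and 0.13 with the DESeq2 block. The causes were not tested. For genes below about 50 CPM, such as Pabpc4 and Eif2s2, the spread between libraries limits what can be seen.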
